A study of Mus musculus with 8 samples.

Results

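The protocadherins described here are all non-control probes of the array whose gene name begins with Pcdh, which gave 61 probes for 47 genes, out of 55681 probes for 36163 gene names. Of the 47 genes, 35 belong to the gene clusters and have 38 probes. These are 7 Pcdha genes with 9 probes, 22 Pcdhb genes with 22 probes and 6 Pcdhg genes with 7 probes. The other 12 genes are non-clustered and have 23 probes. They are 4 genes of the delta-1 subfamily (Pcdh1, Pcdh7, Pcdh9 and Pcdh11x), 5 of the delta-2 subfamily (Pcdh8, Pcdh10, Pcdh17, Pcdh18 and Pcdh19), and Pcdh12, Pcdh15 and Pcdh20. The cells were of 1 mouse ES cell line, E14Tg2A, of strain 129/Ola. They were collected undifferentiated in serum and LIF (ES, 0 days of in vitro differentiation, DIV), as floating aggregates in a defined minimal medium with N2 and B27 supplements (epiblast-like aggregates, ELA, 2 DIV), after plating on poly-ornithine and laminin in that medium (neural progenitor cells, NPC, 6 DIV), and after a further plating without B27 (neural precursors, NPC/Neu, 10 DIV). At each stage 1 array received total RNA and 1 array received RNA precipitated from the cytosolic fraction with an antibody against all Argonaute (Ago) proteins, the core of the RNA-induced silencing complex. Each array held RNA pooled from 3 independent experiments, so no condition had a replicate array, and no difference between stages and no Ago enrichment at a stage could be tested.

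Protocadherins are calcium-dependent adhesion molecules and form the largest branch of the cadherin superfamily. In the clusters every variable exon has a promoter of its own, and single neurons switch on a small, partly random choice of them, which gives neighbouring cells different surface identities. Variable exons of the alpha and gamma clusters are spliced to constant exons that all transcripts of their cluster share, whereas beta genes consist of 1 exon each. The non-clustered delta protocadherins are single genes whose expression marks particular regions of the developing nervous system.

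Total RNA and Ago–RNA were measured as spot intensities, corrected for background, quantile normalized over the 8 arrays and given on the log2 scale. Between 53.4% and 61.2% of the spots of an array were well above background by the criterion of the scanner software. The ES Ago–RNA array was the brightest, with an upper quartile of mean spot intensity of 3039 against 1060 to 1774 elsewhere. Noise between spots was taken from 399 probes printed in 10 spots each. Their median SD was between 0.21 and 0.22 for a log2 change of total RNA between stages, between 0.19 and 0.23 for the Ago enrichment E, which is log2 of Ago–RNA over total RNA, and between 0.30 and 0.32 for its variation ΔE between consecutive stages. This spread covers spots of an array and not cultures or immunoprecipitations. Of the listed ES markers, 5 of 5 (Pou5f1, Nanog, Zfp42, Esrrb and Klf4) were lower in NPC/Neu than in ES, by 1.97 to 6.90 on the log2 scale, though their signals stayed well above background. The summed signal of the 3 ELA markers was highest in ELA, at 18.22. Of the NPC markers 4 of 4 were higher, and the summed signal of Sox1, Pax6, Nes and Hes5 went from 13.16 in ES to 14.13 in ELA, 16.77 in NPC, and was higher still in NPC/Neu. Of the neuron markers 4 of 4 found on the array were higher in NPC/Neu than in ES. Dcx, of migrating neuroblasts, had 6.47, 6.66, 7.94 and 10.88 from ES to NPC/Neu and was not well above background in ES. The others were bright in ES already, with 12.95 for Tubb3, 13.26 for Nefl and 14.44 for Stmn2. From ES to ELA Nefl changed by -1.86, Stmn2 by -0.74 and Tubb3 by 0.70. The summed neuron signal was 15.29 in ES against 14.82 in ELA, and it reached 17.96 at the last stage. Among markers of other cells, 1 of 4 for endoderm (Foxa2, by 3.35), 1 of 3 for glia (Olig2, by 2.83), 1 of 2 for mesoderm (T, by 2.12), 1 of 3 for endothelium (Kdr, by 1.43) and 0 of 2 for muscle rose between ES and NPC/Neu, and none fell. Cdh5 of endothelium, Gata6 of endoderm and Mesp1 of mesoderm were not well above background at any stage.

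Protocadherin mRNAs were mostly at background in ES and ELA cells and appeared in NPC. In total RNA, 15 (ES), 17 (ELA), 45 (NPC) and 50 (NPC/Neu) of the 61 probes were well above background, while over all probes of the array the share hardly varied, at 59.6%, 53.6%, 59.8% and 58.5%. Of the 38 clustered probes 7 were well above background in ES and 7 in ELA, but 31 in NPC and 33 in NPC/Neu. Of the 23 non-clustered probes the numbers were 8, 10, 14 and 17. In bulk RNA, fewer cells that express a gene and less RNA per cell cannot be told apart.

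**Figure D1:**
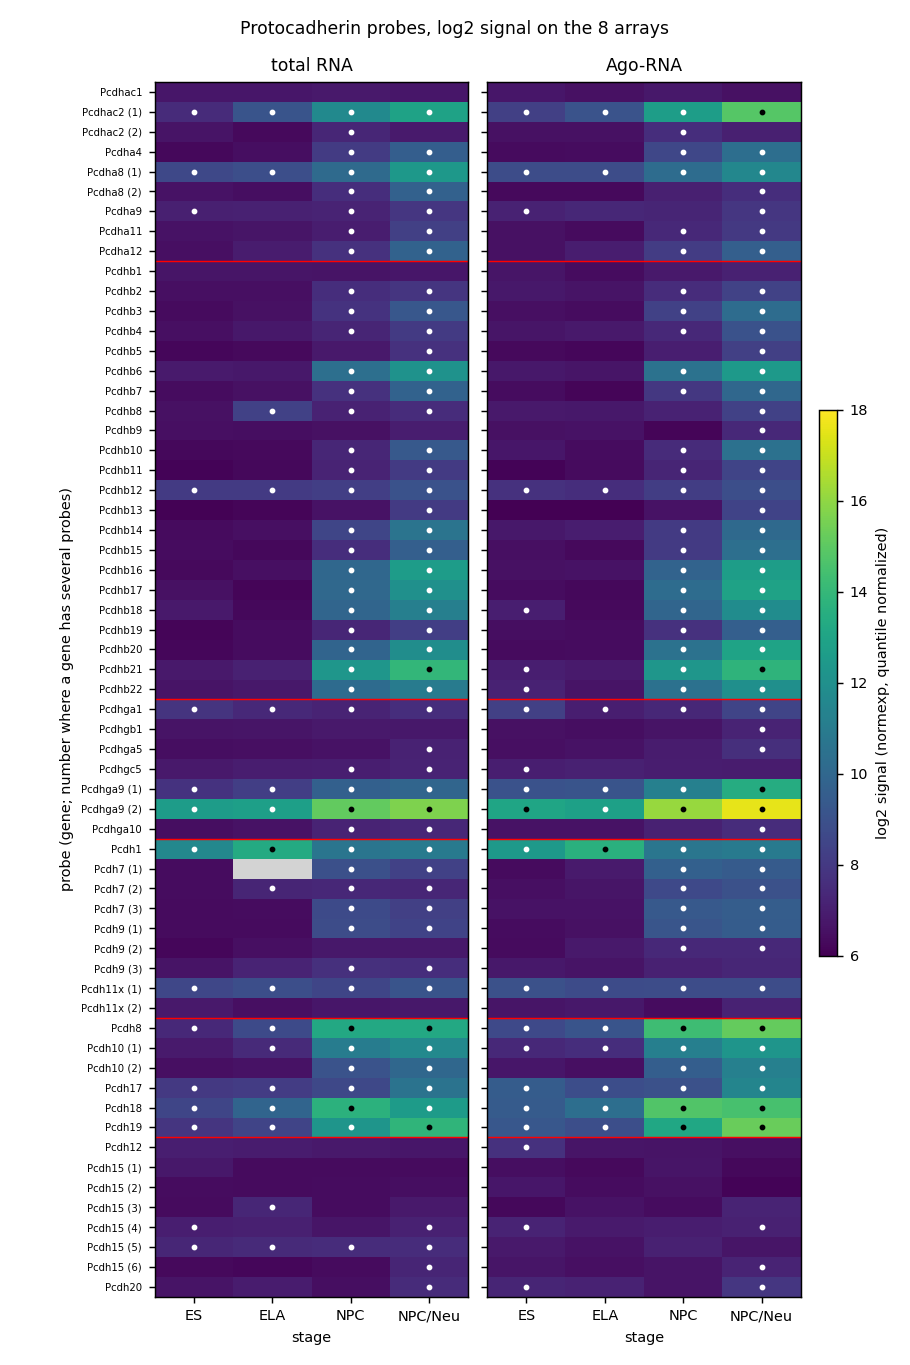
Log2 signal of the 61 protocadherin probes (rows, grouped by cluster or subfamily between the red lines) at the 4 stages (columns), for total RNA on the left and Ago–RNA on the right. A dot marks a signal well above background, and the grey cell is an irregular spot that was set aside. The beta genes are dark in ES and ELA and brighter in NPC and NPC/Neu, where 18 and 20 of 22 carry a dot in total RNA.

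A change of at least 1 on the log2 scale, that is 2-fold, was counted as a rise or a fall. From ES to ELA 5 probes rose, where 3.08% of all probes of the array did, and 0 fell, against 3.21%. From ELA to NPC 25 of 60 measured probes rose, against 7.02% of all probes, and 2 fell, against 6.38%. From NPC to NPC/Neu 21 rose, against 3.7% of all probes, and 1 fell, against 2.61%. Between the ends of the series, ES and NPC/Neu, 36 of the 61 probes rose, against 11.1% of all probes, and 0 fell, against 10.9%. The 36 were 27 of the 38 clustered and 9 of the 23 non-clustered probes. Where a probe was not well above background in ES, its rise is given below as a lower bound, against the dimmest signal that was well above background on that array or the probe's own signal if that was higher. With bounds in place of measured differences, 35 of the 61 probes were higher by at least 1.

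The delta-2 genes, which carry a cytoplasmic tail that binds regulators of actin, were the non-clustered genes with the largest changes. All 6 of their probes rose from ES to NPC/Neu, with a median log2 change of 4.47, while the median over all probes was -0.02. Over all 5 genes and the 5 ways of normalizing that were compared, the smallest change of a delta-2 gene was 2.39.

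Pcdh8, known as arcadlin or paraxial protocadherin for its part in somite formation and synapse remodelling, had total RNA log2 signals of 7.37 (ES), 8.71 (ELA), 13.23 (NPC) and 13.23 (NPC/Neu). Its probe, on chr14:80166728-80166787 of mm9 (minus strand), lies in the 3′ UTR. It rose already from ES to ELA, stood at its plateau from NPC on and was 58.2-fold higher in NPC/Neu than in ES. Pcdh19, the X-linked gene that is mutated in a human epilepsy of girls, had 7.84, 8.48, 12.26 and 13.83 at the same stages, a 63.5-fold difference between the ends. Its probe (chrX:130122356-130122415, minus strand, 3′ UTR) rose at both later transitions. Pcdh18 had 8.49 (ES), 9.89 (ELA), 13.71 (NPC) and 12.60 (NPC/Neu), from a probe in its 3′ UTR (chr3:49547305-49547364, minus strand). It was the delta-2 gene that fell after NPC, by 1.10, and it ended 17.3-fold above ES. Pcdh17, which is found at cortico-striatal synapses, had 7.98, 8.12, 8.58 and 10.58, so that most of its 6.06-fold rise came after NPC (probe at chr14:84933861-84933920, plus strand, 3′ UTR). Pcdh10, or OL-protocadherin, has 2 probes, and neither was well above background in ES. One probe had 6.85 (ES), 7.42 (ELA), 11.02 (NPC) and 11.66 (NPC/Neu), at least 28.2-fold higher at the end. The other, which the annotation places in an intron of the transcripts used here, had 6.51, 6.60, 9.09 and 10.00, at least 9.58-fold higher. Both changed in the same order of stages, with the step between ELA and NPC the largest.

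The delta-2 mRNAs were also enriched in the Ago precipitate, though E of Pcdh10 was 0.38 or lower before NPC/Neu. E of Pcdh8 was 1.26 (ES), 0.41 (ELA), 1.06 (NPC) and 1.93 (NPC/Neu). E of Pcdh19 was 1.39, 0.41, 0.88 and 1.43, and E of Pcdh18 was 0.97, 0.45, 1.04 and 1.91. All of them were lowest in ELA. Pcdh17 had 1.51 (ES), 0.72 (ELA), 0.42 (NPC) and 0.89 (NPC/Neu), and was lowest in NPC. Over the delta-2 probes well above background on both arrays of a stage, the median E was 1.33 (ES, 4 probes), 0.41 (ELA, 5 probes), 0.70 (NPC, 6 probes) and 1.33 (NPC/Neu, 6 probes), where the medians over all such probes of the array were 0.04, -0.02, 0.06 and 0.09. From ES to ELA, ΔE of the 5 genes, Pcdh10 included although it was dim in ES, lay between -0.99 and -0.37, and from NPC to NPC/Neu between 0.47 and 0.87. The first range was negative and the second positive for every one of the 5 genes under all 5 normalizations. None of these single variations reached the limit of 1 with the values used here, and spot noise of ΔE was about 0.30. Between ES and ELA total RNA of Pcdh8 and Pcdh18 rose while their Ago–RNA rose less, from 8.63 to 9.12 and from 9.46 to 10.34, respectively.

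**Figure D2:**
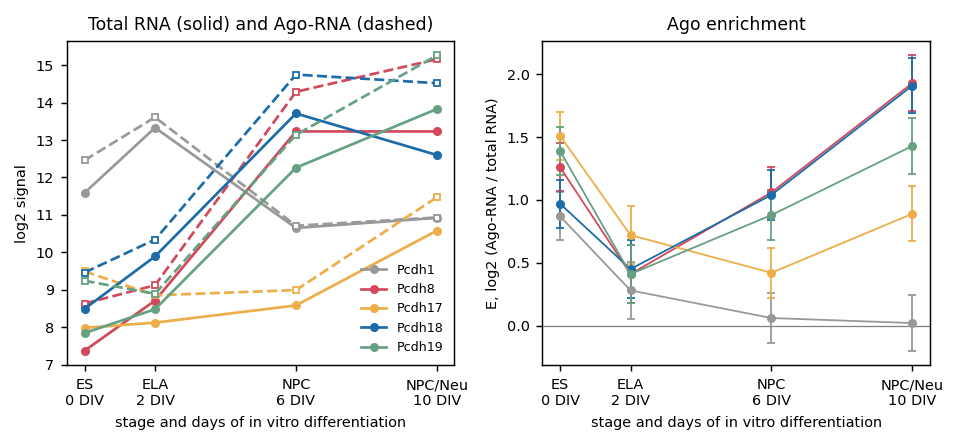
Left, log2 signals of total RNA (solid lines) and Ago–RNA (dashed lines) of Pcdh1 and 4 delta-2 genes against days of in vitro differentiation. Right, their Ago enrichment E, with bars for the median spot SD of E at that stage. Pcdh8, Pcdh18 and Pcdh19 dip in E at ELA and stand at 1.43 or more in NPC/Neu, whereas Pcdh1 declines from 0.87 to 0.02.

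Short stretches of 3′ UTR that match the seed of a miRNA, bases 2 to 8 of the mature strand, are shown because Ago is guided to mRNAs by such pairing. The miRNAs were picked after the values had been seen, for what they are known for. The miR-294 and miR-302 families belong to naive and primed pluripotent cells and share their seed, let-7 rises on differentiation, and miR-9 belongs to neural progenitors. The mature sequences, from RefSeq, have the seed in capitals.
mmu-miR-294-3p: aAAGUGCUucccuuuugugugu
mmu-miR-302b-3p: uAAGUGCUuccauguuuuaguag
mmu-let-7a-5p: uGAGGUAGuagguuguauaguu
mmu-miR-9-5p: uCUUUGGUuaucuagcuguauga

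The words searched were AGCACTT for miR-294 and miR-302b, CTACCTC for let-7a and ACCAAAG for miR-9, on the transcript strand alone, in the longest GENCODE 3′ UTR of each gene, which was found for 32 of the 47 genes. AGCACTT occurred in 8 of the 32, CTACCTC in 3 and ACCAAAG in 8, where 13.4%, 8.81% and 11.4% of the 19915 UTRs of all genes held them. These shares are not matched for UTR length, so the counts cannot be read as an excess. Of UTRs similar in length to that of Pcdhb2 (238 bases), 2.58% held AGCACTT. Near the length of that of Pcdh19 (5125 bases), 48.9% did. The 30-base windows below come from the non-clustered genes that rose and hold a match, on mm9, with the matching bases in capitals.
Pcdh7, miR-294, chr5:58119946-58119975, plus strand: ttaaaaacttcaAGCACTTtaataaaacat
Pcdh7, miR-9, chr5:58120079-58120108, plus strand: ttagttagatttACCAAAGtcactggagac
Pcdh18, miR-9, chr3:49548197-49548226, minus strand: atatccttttcaACCAAAGttactgcttag
Pcdh19, let-7a, chrX:130120531-130120560, minus strand: ctgtactgaataCTACCTCatgcaaaatat

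Such words are common. Of the UTRs with 0.8 to 1.25 times the length of that of Pcdh18 (1311 bases), 12.2% held ACCAAAG. Of those near the length of that of Pcdh7 (1316 bases), 14.03% held AGCACTT and 12.3% ACCAAAG, and of those near the length of that of Pcdh19 (5125 bases), 26.9% held CTACCTC. The UTRs of Pcdh8, Pcdh10 and Pcdh17 held none of the 3 words in the model searched. A match is a description of letters and was not tested as a site.

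Among the delta-1 genes, Pcdh1 was well above background at every stage and highest in ELA. An adhesion molecule best known from airway epithelium, it had total RNA signals of 11.59 (ES), 13.33 (ELA), 10.65 (NPC) and 10.92 (NPC/Neu). It rose by 1.74 from ES to ELA, fell by 2.69 from ELA to NPC, and was the one non-clustered gene to fall at that step. Its E declined from 0.87 (ES) over 0.28 (ELA) and 0.06 (NPC) to 0.02 (NPC/Neu).

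Pcdh7, or NF-protocadherin, is represented by 3 probes, and none was well above background in ES. The 3 probes had 8.93, 7.32 and 8.68 in NPC and 8.33, 7.30 and 8.29 in NPC/Neu. For all 3 the value in NPC/Neu was no higher than in NPC, and for the second the levels in ELA (7.26), NPC and NPC/Neu differed by less than the spot noise. The differences between ES and NPC/Neu were at least 3.01-fold, 1.47-fold and 2.93-fold, and the total RNA spot of the first probe in ELA was irregular and left out. E of Pcdh7 was 0.77, 1.34 and 0.64 at the 3 probes in NPC and 1.12, 1.68 and 1.26 in NPC/Neu, all above 1 at the last stage. The 3 probes of Pcdh9 disagreed. One, outside the annotated transcripts, went from 6.37 in ES and 6.36 in ELA to 8.80 in NPC and 8.43 in NPC/Neu, with E of 0.38 and 1.06 at those stages. A probe in the coding sequence stayed below the criterion at all stages, with 6.22, 6.50, 6.75 and 6.76, and another reached it with 7.65 in NPC and 7.58 in NPC/Neu. Pcdh11x, the X-linked member of the subfamily, was well above background throughout at 1 of its probes, with 8.55, 8.86, 8.49 and 9.14. The annotation places that probe in an intron of the transcripts used here. The other probe, which matches a Pcdh11x coding transcript, was well above background at no stage.

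The remaining non-clustered genes were dim. Pcdh12, or VE-cadherin-2 of endothelium, was not well above background in total RNA at any stage, and its Ago–RNA signal passed the criterion in ES alone, at 7.70. Of the 3 listed endothelium markers, Cdh5 was not well above background either, while Kdr and Pecam1 were at all stages. Pcdh20 had 6.62, 6.93 and 6.45 and passed in NPC/Neu alone, at 7.49. Pcdh15, a part of the tip links of inner-ear hair cells, has 6 probes, whose total RNA signals lay between 6.20 and 7.54 over the 4 stages. Of these, 1 probe in the coding sequence was well above background at all stages in total RNA, between 7.30 and 7.54, and at none in Ago–RNA.

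In the beta cluster, 1 of 22 probes was well above background in total RNA of ES cells and 2 were in ELA, against 18 in NPC and 20 in NPC/Neu. For 16 of the 22 genes the criterion was passed in NPC and NPC/Neu and at neither earlier stage. Between ES and NPC/Neu 19 of 22 probes rose, with a median log2 difference of 3.00. Counting lower bounds for the genes not measured in ES, the median was 2.76 over the 20 genes with a value. The neuron markers rose over the same interval, by a median of 3.41 (4 genes), and the NPC markers by 2.63 (4 genes), and their part in the rise of the beta genes was not tested.

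Pcdhb21 changed most, with 6.81 in ES and 7.12 in ELA, both below the criterion, 12.32 in NPC and 13.96 in NPC/Neu, at least 141-fold higher at the end than at the start. Pcdhb16 had 6.32, 6.50, 10.02 and 12.63, at least 59.4-fold higher. Pcdhb20 had 6.23, 6.41, 9.86 and 11.87, at least 34.9-fold higher. In all of them most of the rise fell between ELA and NPC, and they rose again afterwards. Pcdhb12 was the exception at the other end, since it was well above background at every stage with 8.02, 8.05, 8.23 and 9.03 and rose 2.02-fold. Pcdhb8 had 6.53 (ES), 8.32 (ELA), 7.15 (NPC) and 7.52 (NPC/Neu), so that its signal was highest in ELA in total RNA, while its Ago–RNA signal there was 6.79 and below the criterion. Pcdhb1 and Pcdhb9 stayed below the criterion in total RNA at all stages.

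Pcdhb3 was printed in 10 spots on each array, which gives its values a spread. In total RNA the log2 signal was 6.33 ± 0.18 in ES (SD over 9 spots), 6.55 ± 0.27 in ELA, 7.77 ± 0.12 in NPC and, at the last stage, 9.24 ± 0.22 (10 spots each). In Ago–RNA it was 6.51 ± 0.22, 6.42 ± 0.19, 8.32 ± 0.15 and 10.23 ± 0.07, over 10, 9, 10 and 8 spots. The steps after ELA were several times the SD between spots on both kinds of array, and the difference between ES and ELA was within about 1 SD.

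The size of the change differed along the cluster. Ordered along the chromosome from Pcdhb1 to Pcdhb22, the first 11 genes had a median change of 1.54 from ES to NPC/Neu and 1 of them, Pcdhb6, changed by 4 or more. The Pcdhb6 probe differs in 7 of 60 bases from another place in the cluster region, and whether it reads more than 1 gene was not tested. The last 11 had a median of 4.37, and 7 of them changed by 4 or more. The cluster was divided in the middle after the values had been seen, so this is a description. The order of the medians was the same under all 5 normalizations, with values between 1.54 and 4.55 for the first 11 genes and between 4.14 and 7.19 for the last 11.

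**Figure D3:**
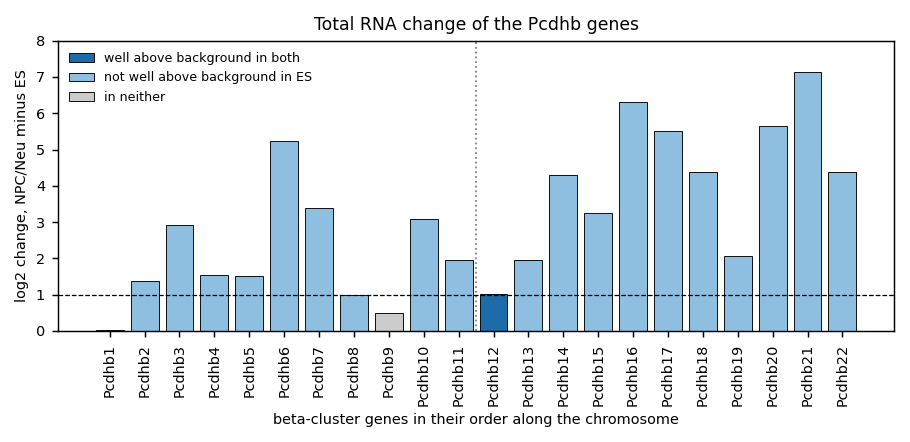
Log2 change of total RNA from ES to NPC/Neu for the 22 beta genes in their order along the chromosome. Dark blue, well above background at both stages. Light blue, not well above background in ES, so the true change may be larger. Grey, in neither stage. The dashed line is a change of 1 and the dotted line divides the first 11 genes from the last 11, where Pcdhb16, Pcdhb17, Pcdhb20 and Pcdhb21 pass 5.

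The alpha cluster rose over the same stages. Of its 9 probes 3 (ES), 2 (ELA), 8 (NPC) and 7 (NPC/Neu) were well above background, and 6 rose from ES to NPC/Neu. Pcdha4 had 6.24 (ES), 6.46 (ELA), 8.10 (NPC) and 9.60 (NPC/Neu), at least 7.26-fold higher. Pcdha12 had 6.48, 6.92, 7.71 and 9.78, at least 8.24-fold higher. Most of the rise of both came after ELA. Pcdha8 has 2 probes with 8.58 and 6.59 (ES), 8.88 and 6.44 (ELA), 10.17 and 7.56 (NPC), and 12.41 and 9.72 (NPC/Neu). The first has a near copy in the cluster that differs in 2 of 60 bases, so it may read more than 1 gene. The annotation places both probes in an intron of the transcripts used here. Pcdha11 ended at least 2.92-fold higher and Pcdha9 was 1.80-fold higher. Of the C-type genes, the ones at the end of the variable exons that are used more uniformly across neurons, Pcdhac1 was not well above background on any array.

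A probe assigned to Pcdhac2 lies in the constant exon of the alpha cluster, so it reads transcripts of all alpha genes together. It had 7.46 (ES), 9.14 (ELA), 11.71 (NPC) and 12.92 (NPC/Neu), a 44.0-fold rise, and it was the alpha probe that rose from ES to ELA. The other probe named for Pcdhac2 passed the criterion in NPC alone, at 7.29. In the gamma cluster 2 probes assigned to Pcdhga9 lie in constant exons in the same way. One of them had 12.65 (ES), 12.77 (ELA), 15.10 (NPC) and 15.67 (NPC/Neu), 8.16-fold higher at the end. The second had 7.78, 8.24, 9.68 and 9.93, 4.43-fold higher. These were the 2 gamma probes that rose. The gamma constant exons were thus well above background at all 4 stages, including ES.

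The gamma probes outside the constant exons were dim and changed little. None of them matched a coding transcript of the annotation used here. That annotation placed Pcdhga5, Pcdhga10 and Pcdhgb1 in introns and Pcdhga1 outside annotated genes. Pcdhga10, Pcdhgb1 and Pcdhgc5 did not match mm9 exactly at their annotated place. Whether these probes read spliced gamma mRNAs was not tested, so the values describe the probes alone. Pcdhga1 had 7.80, 7.36, 7.18 and 7.55, and was the one clustered probe with a lower value in NPC/Neu than in ES, by 0.25. Pcdhga10 passed the criterion from NPC on, with 7.19 in NPC and 7.33 in NPC/Neu, Pcdhga5 passed in NPC/Neu alone, and Pcdhgb1 passed at no stage in total RNA. The C-type gene Pcdhgc5 had 6.82, 6.97, 7.02 and 7.19.

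The median Ago enrichment of clustered probes differed between clusters in NPC/Neu, while their ranges overlapped. With both arrays well above background, the median E of beta probes was 0.59 (20 probes, 17 above 0). It was -0.16 for alpha probes (7 probes, 2 above 0) and 0.90 for gamma probes (5 probes, 5 above 0). All such probes of the array had a median of 0.09, with 15672 of 28527 above 0. The gamma median rested on the 2 constant-exon probes, since the other 3 had 0.20 (Pcdhga10), 0.46 (Pcdhga5) and 0.90 (Pcdhga1), and their middle value lies below the beta median. Non-clustered probes had a median of 1.06 (15 probes, 12 above 0). In NPC the medians were 0.13 for beta (17 probes), 0.43 for alpha (6 probes), 1.03 for gamma (3 probes, 2 of them in constant exons) and 0.58 for non-clustered probes (12 probes). Before NPC too few clustered probes were measured to compare clusters, with 7 in ES and 6 in ELA.

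An E of 1 or more was reached by 4 protocadherin probes in ES, where 6.86% of all probes of the array reached it, by 0 in ELA (2.84%), by 5 in NPC (3.7%) and by 14 in NPC/Neu (7.52%). These counts depend on how many probes were measurable. Among probes well above background on both arrays they were 4 of 14, 0 of 13, 5 of 38 and 14 of 47. Over all such probes of the array the shares were 11.9%, 4.6%, 6.27% and 13.4%. The 4 in ES were Pcdh8, Pcdh17, Pcdh19 and a constant-exon probe of Pcdhga9. In NPC/Neu the 14 probes belonged to Pcdh7 (3 probes), Pcdh8, Pcdh9, Pcdh10, Pcdh18, Pcdh19, Pcdhac2, Pcdhb10, Pcdhb19, Pcdhb20 and Pcdhga9 (2 probes). An E of -1 or less was found for Pcdhb8 in ELA, with an Ago–RNA signal below the criterion, and for Pcdha8 in NPC/Neu, which makes 0, 1, 0 and 1 probes over the stages, against 7.78%, 2.71%, 4.57% and 8.35% of all probes.

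In NPC and NPC/Neu the probes in constant exons had the highest E of their clusters. E of the second Pcdhga9 probe was 1.25 (ES), 0.88 (ELA), 1.53 (NPC) and 3.49 (NPC/Neu), and that of the first 0.39, 0.02, 1.03 and 1.88. The Pcdhac2 probe had 0.81, -0.07, 0.97 and 1.91. All were lowest in ELA and highest in NPC/Neu. At NPC/Neu the highest beta gene was Pcdhb19 with 1.40, and the lowest was Pcdhb14 with -0.53, although the total RNA of both had risen. Pcdhb21, with the largest rise in total RNA, had E of 0.00 in NPC and -0.14 in NPC/Neu. The brighter probe of Pcdha8 had E of 0.07 in NPC and -0.88 in NPC/Neu, so it went down where the constant-exon probe of the alpha cluster went up. The dimmer probe had -2.17 in NPC/Neu, and its Ago–RNA signal in NPC was below the criterion. Both Pcdha8 probes match no coding transcript of the annotation, and whether they read spliced mRNA was not tested.

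Where a probe lies in its mRNA went along with E in NPC/Neu, but not in the same direction in NPC. In NPC/Neu, protocadherin probes of 3′ UTRs had a median E of 0.77 (22 probes) and those of coding sequence 0.33 (9 probes), and the medians over all probes were 0.29 (12154 probes) and 0.12 (4258 probes). In NPC the protocadherin medians stood the other way, at 0.21 (18 probes) and 0.43 (7 probes). Too few coding probes were measured in ES (2) and ELA (1) to compare. The part of probe position in the differences between clusters was not tested.

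**Figure D4:**
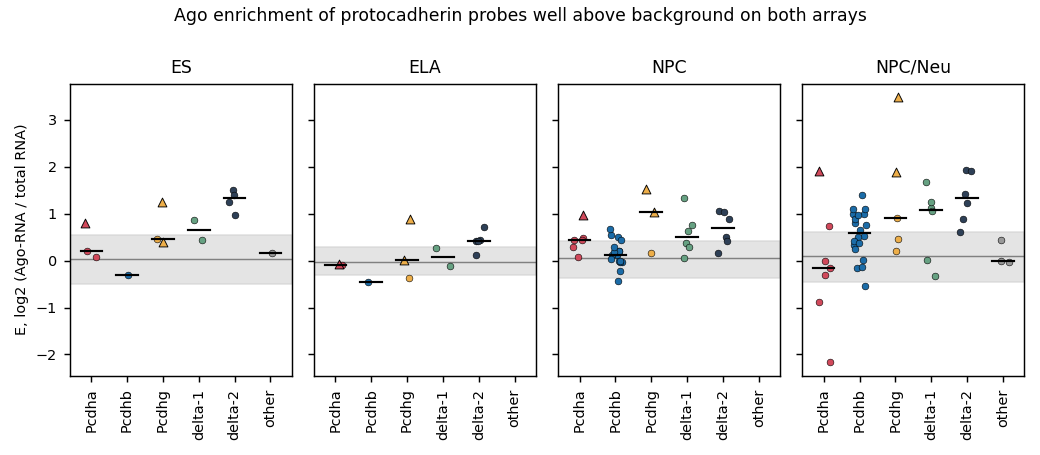
Ago enrichment E at the 4 stages for protocadherin probes that were well above background on both arrays of the stage, by cluster or subfamily. Triangles are probes in constant exons, black bars are medians, and the grey line and band are the median and quartiles of all such probes of the array. Delta-2 probes lie above the band's median at all stages, and most beta probes rise above it in NPC/Neu.

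By the thresholds for release from Ago (an Ago–RNA signal over the binding threshold of 7.82, E of at least 2, then at most 0.5, and ΔE of -1.5 or lower) and for loading (the reverse), 0 of the protocadherin probes were released and 0 were loaded at any of the 3 transitions. Over all probes the shares were 0.192% and 0.134% at the ES–ELA transition, 0.0869% and 0.029% at the ELA–NPC transition, and 0.0289% and 0.0361% at the NPC–NPC/Neu transition. Release could not occur, since no protocadherin probe had E of 2 or more in ES, ELA or NPC. In NPC/Neu 1 probe did, of Pcdhga9. With array shares this low, counts of 0 among so few probes cannot be read as a result about protocadherins. With the milder limit of 1, ΔE fell for 1 probe at the ES–ELA transition (Pcdhb8, measured against a dim Ago–RNA signal), where 4.46% of all probes did, and rose for 0, against 5.35%. It rose for 4 probes at the ELA–NPC transition, against 2.21% of all probes, and these were Pcdh7, Pcdhac2, Pcdhb8 and Pcdhga9. Of them Pcdhac2 and Pcdhga9 were well above background on all 4 arrays, whereas the Ago–RNA signal of Pcdh7 was below the criterion in ELA and that of Pcdhb8 at both stages. None fell there, against 2.94%. At the NPC–NPC/Neu transition it rose for the second constant-exon probe of Pcdhga9, against 2.06% of all probes, and fell for the dimmer probe of Pcdha8, against 3.36%, measured from an Ago–RNA signal below the criterion in NPC. With all 4 arrays of the ES–ELA transition well above background, ΔE was negative for 6 of 6 clustered and 6 of 6 non-clustered probes. Their medians were -0.37 and -0.69. All such probes of the array had a median of -0.01, and ΔE was above 0 for 13246 of 26670. The clustered probes were not 6 separate genes. They include the constant-exon probes of Pcdhac2 (-0.88) and of Pcdhga9 (-0.37 at both). The others were Pcdhga1 (-0.82, outside annotated genes), the brighter Pcdha8 probe (-0.30, with a near copy) and Pcdhb12 (-0.15). The values of Pcdha8 and Pcdhb12 lay within the spot noise of 0.31.

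Listed genes known for acting on the clusters were expressed throughout. All 15 were well above background at all stages in total RNA. They include Ctcf, which binds the promoters and their enhancers, subunits and loaders of cohesin, which loops them together, and Smchd1, Dnmt3b and Setdb1, which keep promoters silent. From ES to NPC/Neu 1 of 15 rose, Dnmt3a by 2.55, where 11.3% of all genes rose, and 3 fell, against 11.3%. Dnmt3b fell by 4.67, Rest fell by 2.67 and Wapal fell by 1.36. Ctcf had 13.87, 14.23, 13.95 and 13.93. Dnmt3b, the methyltransferase that acts on promoters of the clusters in early embryos, had 16.35, 17.67, 12.12 and 11.68, with its drop between ELA and NPC. E varied by -1 or less for 8 of the 15 from ES to ELA, where 4.45% of all genes did, with a median of -1.06. The share over all genes includes genes at background, so it is not matched to these 15 in signal. Dnmt3b went from 2.24 in ES to 0.24 in ELA and Smchd1 from 2.25 to 0.43. The list and its values are a description, since some of these genes were known from earlier results of the data.

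Of 20 listed intracellular partners and processing enzymes of protocadherins, 5 rose and 1 fell between ES and NPC/Neu. Of all genes 11.3% rose and 11.3% fell. Fyn, a Src-family kinase that associates with alpha protocadherins, rose by 2.73, and Adam10, the protease that sheds their ectodomain, by 2.60. Cyfip2 of the WAVE actin complex, which delta-2 tails bind, rose by 2.61, whereas Nckap1 of the same complex changed by 0.52. Ptk2b, the kinase PYK2 that alpha and gamma tails inhibit, fell by 2.11. Among 24 genes named Cdh with a number, not all of them classical cadherins, 8 rose and 3 fell over the same interval. Cdh2, the N-cadherin that Pcdh8 and Pcdh19 associate with, had 11.42, 12.16, 15.67 and 16.34, and Cdh1, the E-cadherin of ES cells, had 14.58, 15.28, 8.91 and 8.76. The share of clustered protocadherin genes that rose is not compared with these lists by any test.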

How the data were processed

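The authors deposited spot intensity as Feature Extraction wrote it, 1 file for each of 8 SurePrint G3 Mouse arrays from Agilent, hybridized in one color and annotated on mm9. The file headers give version 10.7.3.1 and the submitters' notes 9.1. Mean intensity and local background, before any normalization between arrays, were used. Here background was removed by the normexp method of limma 3.58.1 (R 4.3.3), with an offset of 50, irregular spots were set aside (4 among the protocadherins), log2 values were quantile normalized, and spots of a probe were averaged. The binding threshold for Ago–RNA came from a mixture of 2 Gaussians (mclust 6.1.1) and lies 3 SD over the mean of the lower one. E and ΔE were computed per probe, and values per gene are means over probes. Values were handled with Python 3.11.15, numpy 2.4.6 and pandas 2.3.3. A signal not well above background gives a bound.

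Of the 61 probes, 53 matched mm9 exactly at their annotated place, and 44 matched a GENCODE coding transcript. Named are all non-clustered and C-type genes, in each cluster the 3 highest and 2 lowest changes from ES to NPC/Neu among genes well above background in total RNA at some stage and the extreme E in ES and NPC/Neu among genes well above background on both arrays of the stage, and released or loaded genes. Others were named after their values were seen. The members and gene lists were chosen with earlier results of these data known. The procedure was tested on simulated data.

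Alternatives were an offset of 16, the processed intensity with quantile or 75th percentile scaling, separate quantile normalization of Ago–RNA and total RNA, probes well above background, the brightest probe of a gene, and no probes in constant exons. Control immunoprecipitations were not used here. According to the labels 50 ng of RNA was labeled.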

Additional observations from a re-analysis of the deposited data

How the results depend on the processing

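No paired analysis was possible because each condition had 1 array, so that no replicates could be matched between stages. E is itself the difference between the paired Ago–RNA and total RNA arrays of a stage, and a test of it with the 4 stages as replicates was not made. With 0 replicates no value was tested, and precision is limited by there being 8 arrays. Against the main medians of the log2 total RNA change from ES to NPC/Neu over genes, 2.85 for Pcdha, 3.00 for Pcdhb, 0.54 for Pcdhg and 1.39 for non-clustered genes, an offset of 16 gave 3.06, 3.74, 0.76 and 1.87. The processed signal, quantile normalized, gave 4.71, 5.97, 2.15 and 2.96, and scaled to the 75th percentile 5.02, 5.93, 2.05 and 2.84. With probes well above background at both stages the values were 3.84, 1.01 (the single gene Pcdhb12), 1.17 and 2.60. The gamma value of 1.17 lies between Pcdhga1 with -0.25 and Pcdhga9 with 2.59, the latter from constant-exon probes. The brightest probe of a gene gave 3.31 for Pcdha and 2.00 for non-clustered genes, and leaving out constant-exon probes gave 1.70 for Pcdha. All these medians kept their sign, and the size of a rise from background depended on how dim signals were corrected.

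Scaling to the 75th percentile shifted the median E of all probes to -0.64 in ES, -0.32 in ELA and -0.35 in NPC/Neu, which by itself raises ΔE from ES to ELA. Median E in ES was then -0.53 for Pcdha, -0.74 for Pcdhb and 0.97 for non-clustered genes, against 0.08, 0.16 and 0.66, and in NPC/Neu -0.68 for Pcdha and 0.03 for Pcdhg, against -0.16 and 0.44. Median ΔE from ES to ELA became 0.24 for clustered and -0.89 for non-clustered genes, against -0.15 and -0.47, so the rise of the clustered genes was no larger than that common shift, and from ELA to NPC 0.67 for non-clustered genes, against 0.25. E in ES became -0.15 for Pcdhac2 and -0.78 for Pcdhb19, below 0. With the processed signal, quantile normalized, median E in ES was 0.59 for Pcdhg and 1.30 for non-clustered genes, and in NPC/Neu 0.88 for Pcdhb, 0.83 for Pcdhg and 0.93 for non-clustered genes. Median ΔE of non-clustered genes was -1.11 from ES to ELA and 0.57 from ELA to NPC, and E of Pcdh12 in NPC/Neu turned from -0.25 to 0.03. With probes well above background, median E in ES was -0.30 for Pcdhb, 0.64 for Pcdhg and 0.97 for non-clustered genes, and in NPC/Neu 0.68 for Pcdhg and 0.92 for non-clustered genes.

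Counts of probes moved too. From ES to ELA, 5 up and 0 down became 12 and 1 (quantile) or 13 and 1 (75th percentile) with the processed signal. From ELA to NPC, 2 down became 5 under both, and 25 up became 8 among probes well above background at both stages. From NPC to NPC/Neu, 21 up and 1 down became 32 and 2 or 35 and 2. An E of 1 or more, at 4, 0, 5 and 14 probes over the 4 stages, was reached by 14, 6, 9 and 23 with the processed signal, quantile normalized. It was reached by 10 in ES with 75th percentile scaling, by 23 in NPC/Neu with separate quantile normalization, and by 3 in NPC without constant-exon probes. The cause of these shifts was not tested.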
